A study of Rattus norvegicus with 60 samples.

Results

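Gene expression in the amygdala was set against that in the prefrontal cortex (PFC) of rat pups at postnatal day 7 (P7), on 20 of the 60 arrays of the study. The amygdala arrays were 5 of the HR line and 5 of the LR line, and the PFC arrays were likewise 5 of HR and 5 of LR. All the pups were male, untreated as far as the labels say, and came from selectively bred lines of Sprague-Dawley background that are used to study inborn differences in anxiety- and depression-like behaviour. The members were chosen by their labels for age and brain region, and the comparison covered the 15828 array rows (transcripts) that have a value in both regional tables, of 17519 in the amygdala table and 18564 in the PFC table. The labels' protocol names the amygdala as the tissue cut out even for PFC samples, so region rests on the labels for brain region, source and title.

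The amygdala is a cluster of nuclei in the temporal part of the forebrain that is known for its part in fear, threat and social behaviour. Its basolateral nuclei are built like cortex, with glutamatergic projection neurons, whereas its central and medial nuclei hold mostly GABAergic neurons rich in neuropeptides and related in origin to the striatum. The PFC is layered neocortex, with glutamatergic pyramidal neurons and interneurons, and exchanges connections with the basolateral nuclei. The first postnatal weeks in the rat are a time of axon growth, synapse formation and gliogenesis in both regions.

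The 2 tables were normalized separately, so each array was reduced to ranks: a percentile of 0 is the dimmest and of 100 the brightest of the shared rows on that array. A difference in points is the mean percentile of the 10 amygdala arrays minus that of the 10 PFC arrays. Points are compressed at the top of the scale, where a few points can stand for a large change in intensity, and percentiles of different genes are not compared because probes differ. The column names number the P7 arrays from 51 to 60 for the amygdala and from 21 to 30 for the PFC, so array set and table cannot be told apart from region in any amygdala-minus-PFC value. The column names also carry sample codes, and 9 of the 10 codes of the P7 amygdala arrays recur among the 10 of the P7 PFC arrays. The sources used here do not say whether a code marks an animal, so the 20 arrays may not be 20 separate animals, and p-values reflect only the array-to-array spread. With the sample code as a random block, 1305 rows were called between the regions, against 1288 without it. Fewer cells of a type and less RNA per cell cannot be told apart in dissected tissue.

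Arrays ranked the rows alike within the amygdala, with Spearman correlations between 0.729 and 0.804 over the shared rows, and less evenly within the PFC, between 0.552 and 0.818. Between the regions they lay between 0.570 and 0.775. The PFC arrays HR 2 and HR 1 stood apart, with median correlations of 0.577 and 0.656 with the other PFC arrays, and PFC arrays HR 3 and HR 4 correlated more with LR amygdala arrays (0.750 and 0.768) than the other PFC arrays did. The median correlation was higher with an amygdala group than with the other PFC arrays for HR 4 (0.768 with LR amygdala, against 0.727), HR 1 (0.677 with HR amygdala, against 0.656) and HR 2 (0.611 with HR amygdala, against 0.577). PFC array LR 4 was the highest PFC array for Nts, Penk, Pmch, Folr1 and Ttr, and results on these genes are given without it as well. The median SD of a row was 13.8 points among amygdala arrays and 15.8 points among PFC arrays, and 66.4% of rows varied more in the PFC.

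In the fit over all 20 arrays, 1288 rows (8.14% of those tested) differed between amygdala and PFC at a Benjamini-Hochberg adjusted p under 0.05 in limma, a linear model with variances moderated across rows; 675 were higher in the amygdala (4.26%) and 613 lower (3.87%). The median size of the difference was 21 points among called rows, against 5.85 points among all rows. The 10 arrays of each region did not overlap for 160 rows (1.01%), of which 96 were higher in the amygdala (0.607%) and 64 lower (0.404%). Both the test and no overlap, with at least 20 points, held for 42 rows (0.265%), 25 higher (0.158%) and 17 lower (0.107%). The number of called rows was 1800 without PFC arrays HR 1 and HR 2, 1545 without HR 3 and HR 4, and 1243 without LR 4. Among called rows, 268 had a mean below the middle of the scale in both regions, where the array may have little signal, and the tables carry no detection flags.

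**Figure D1:**
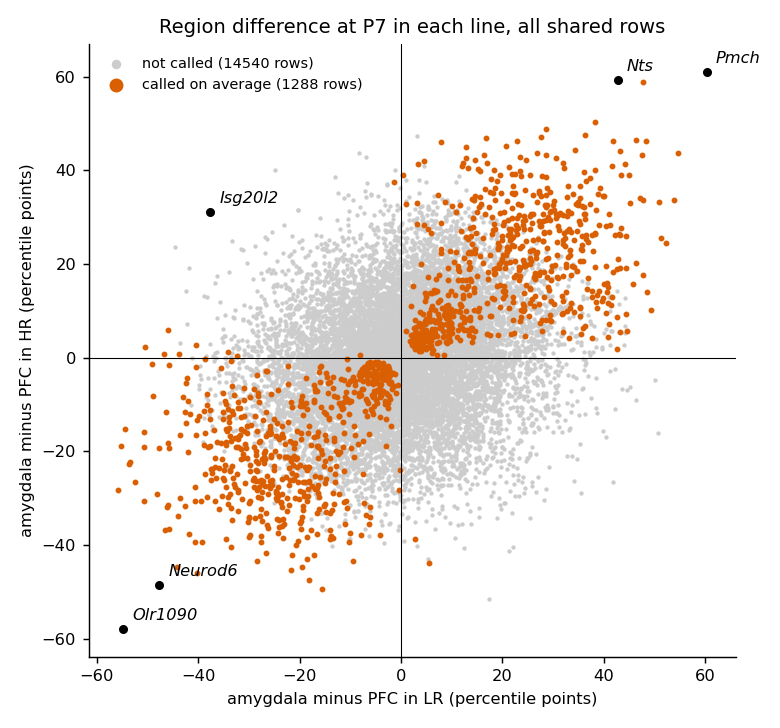
Amygdala minus PFC at P7 in percentile points for each of the 15828 shared rows, with the HR difference (5 arrays against 5) on the vertical axis and the LR difference (5 against 5) on the horizontal axis. Orange points are the 1288 rows called on the average of both lines, and 5 genes described in the text are marked in black. Of the called rows, 1277 have the same sign in HR and LR, which the choice by the average of these same values largely brings about.

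In percentile points, the largest non-overlapping difference in favour of the amygdala belonged to Nts, which encodes neurotensin, a peptide transmitter of central amygdala, hypothalamic and midbrain neurons. Nts lay at percentiles 87.5 to 91.4 on amygdala arrays (median 89.3), against 4.65 to 81.6 on PFC arrays (median 36.1). Every amygdala array was above every PFC array, and the PFC arrays were far more spread out. The difference was 51 ± 6.75 points (SE, n = 10 arrays per region; limma, adjusted p = 0.000411), and 55.5 points without PFC array LR 4. On the log2 scale after centring each array on its median it was 3.28, less than for Ttr and Penk, described below.

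Other genes in this group were Cldn3, Gstm6, Rln3, Nr2f2, Nrbf2, Pnoc, Ucn, C9h2orf66, Cflar, Lhb and Krt15, with differences between 21.8 points (Krt15) and 46.5 points (Cldn3). Cldn3 encodes a claudin of tight junctions, which seal epithelia. It lay between 51 and 77.8 on amygdala arrays (median 72.4), against 2.55 to 44.4 on PFC arrays (median 23.3), a clear gap (46.5 ± 4.80 points, limma adjusted p = 3.74e-05). Nr2f2 encodes COUP-TFII, a nuclear receptor that patterns the ventral and caudal forebrain. Its percentiles were 69.3 to 83.9 on amygdala arrays (median 79.7), against 12.6 to 62.3 on PFC arrays (median 36.6), again without overlap (41.9 ± 5.59 points, limma adjusted p = 0.00042).

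Among them were further peptide precursors. Rln3 encodes relaxin-3, which is made chiefly in the nucleus incertus of the brainstem, and lay at 62.8 to 82.2 on amygdala arrays (median 75.7), against 2.33 to 58.2 on PFC arrays (median 32.3). Pnoc, the precursor of nociceptin, lay at 60.9 to 74.3 on amygdala arrays (median 68.7), against 13.07 to 56.3 on PFC arrays (median 32.5). Ucn encodes urocortin, a relative of corticotropin-releasing hormone, and lay at 69.3 to 79.4 on amygdala arrays (median 75.8), against 25.2 to 62.0 on PFC arrays (median 46.2). For all 3 the lowest amygdala array stood above the highest PFC array, and the differences were 42 ± 6.34, 34.7 ± 5.36 and 30.6 ± 3.80 points (SE; limma adjusted p = 0.000885, 0.00098 and 0.000231). Lhb, the beta subunit of luteinizing hormone, is otherwise known from the pituitary, and its percentiles were 82.2 to 88.8 on amygdala arrays, against 20.3 to 81.2 on PFC arrays.

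In percentile points, the largest non-overlapping difference in favour of the PFC belonged to Olr1090, an olfactory receptor gene. Olr1090 lay at 0.319 to 27.8 on amygdala arrays (median 10.11), against 54.9 to 84.0 on PFC arrays (median 69.3). The regions were separated by a wide gap, and the difference was −56.4 ± 3.59 points (limma, adjusted p = 2.28e-07), or −1.55 on the median-centred log2 scale, where Ptgds and Crym, described below, differed more. What its probes detect in brain was not tested.

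Other genes lower in the amygdala without overlap were Wdr41, Dcaf8, Tbc1d8, Psmd12, Dtx4, Nars1, C16h19orf44, Aldh7a1, Emp3 and Ggnbp2, with differences between −26.8 points (Ggnbp2) and −44.4 points (Wdr41). Wdr41, a partner of the C9orf72 protein in a lysosomal complex, lay at 9.31 to 40.5 on amygdala arrays (median 23.2), against 58.3 to 76.7 on PFC arrays (median 70.0), with an adjusted p of 5.3e-06 in limma. Aldh7a1, an aldehyde dehydrogenase of lysine breakdown, lay at 41 to 63.9 on amygdala arrays (median 54.4), against 78.1 to 87.1 on PFC arrays (median 82.5). That gap was narrow in spread and clear in every array, at −30.0 ± 2.42 points (limma, adjusted p = 3.59e-06).

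Several of these genes serve basic cell functions. Psmd12 is a subunit of the proteasome's regulatory particle, Nars1 charges tRNA with asparagine and Dtx4 is a Deltex ubiquitin ligase. Psmd12 lay at 0.578 to 21.6 on amygdala arrays, against 29.7 to 70.9 on PFC arrays, and Nars1 at 1.84 to 33.3 on amygdala arrays, against 39.3 to 64.6 on PFC arrays. Both were dim on amygdala arrays, where the array may have little signal. Ggnbp2 has a second row, at −20.8 points, that was not called (limma, adjusted p = 0.063).

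**Figure D2:**
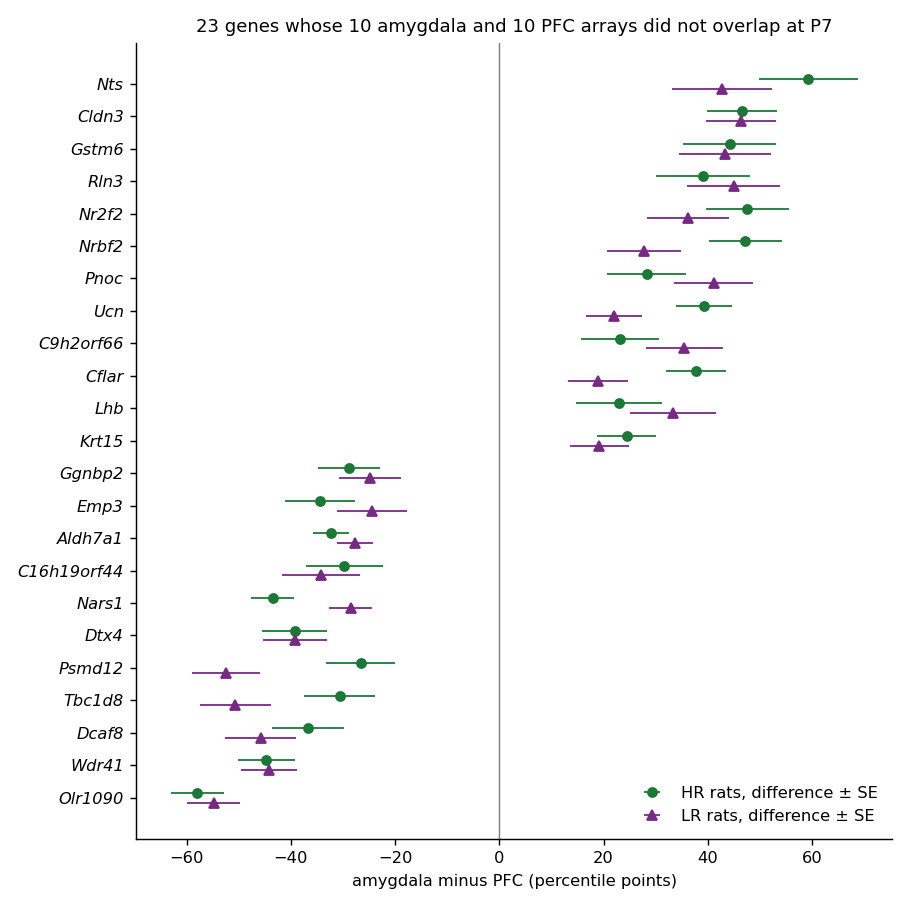
Amygdala minus PFC in percentile points, with its SE, for 23 genes whose 10 amygdala and 10 PFC arrays did not overlap at P7, shown for HR rats (circles, 5 arrays per region) and LR rats (triangles, 5 arrays per region). From Nts at the top to Olr1090 at the bottom, both lines lie on the same side of 0 for each gene, as the choice of genes without overlap requires.

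Genes of central amygdala peptide and signalling neurons were called in both directions. Of 20 measured members of that list, 9 were higher in the amygdala, 4 lower and 7 not called, against 8.14% called among all 11146 named genes (3.93% higher and 4.21% lower). The median difference over the members was 5.16 points, against −0.195 points over all named genes. The counts were likewise 9 and 4 without PFC arrays HR 1 and HR 2, and 10 and 4 without LR 4.

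Penk encodes proenkephalin, an opioid precursor of striatal and central amygdala neurons, and lay at 96.4 to 98.3 on amygdala arrays (median 97.6), against 83.2 to 93.5 on PFC arrays (median 86.2). No array overlapped, and the difference was 10.7 ± 1.10 points (limma, adjusted p = 3.71e-05), or 3.69 on the median-centred log2 scale. Without PFC array LR 4 it was 11.6 points. Tac1, the precursor of substance P, lay at 83.8 to 89.3 on amygdala arrays (median 87.0), against 64.5 to 83.8 on PFC arrays (median 79.3), and the lowest amygdala array was only just above the highest PFC array. Its difference was 15.3 points in HR and 2.31 points in LR (line by region, limma adjusted p = 0.12).

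Crh encodes corticotropin-releasing hormone, which starts the hormonal stress response and is also made by central amygdala neurons. Crh lay at 71.9 to 83.3 on amygdala arrays (median 76.9), against 31.4 to 77.0 on PFC arrays (median 60.1), and only PFC array HR 1 reached the amygdala range. The difference was 20.2 ± 3.73 points (limma, adjusted p = 0.00355). Ecel1, an endopeptidase-like enzyme of peptide-secreting neurons, had a difference of 41.2 ± 7.70 points, and Gal, the galanin precursor, 3.26 ± 0.768 points (limma adjusted p = 0.00392 and 0.0147). Oxtr, the oxytocin receptor, lay at 51.6 to 75.3 on amygdala arrays, against 3.35 to 66.8 on PFC arrays, and overlapped (27.8 ± 7.32 points, limma adjusted p = 0.0269, but 0.0533 without PFC arrays HR 3 and HR 4). Prkcd, the protein kinase C delta that marks a class of lateral central amygdala neurons, was higher by 11 points, and Sst, somatostatin, by 2.59 points (limma adjusted p = 0.0202 and 0.0367).

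The 4 members lower in the amygdala were Cck, Vip, Sstr2 and Dlk1. Cck encodes cholecystokinin, which is abundant in cortical neurons, and lay at 94.6 to 96.1 on amygdala arrays (median 95.4), against 97.6 to 98.6 on PFC arrays (median 98.0). The regions did not overlap (−2.66 ± 0.612 points, limma adjusted p = 0.013). Vip, a peptide of cortical interneurons, lay at 0.818 to 46 on amygdala arrays (median 19), against 37.1 to 70.4 on PFC arrays (median 46.1), with some overlap (−26.3 ± 6.28 points, limma adjusted p = 0.0158). Sstr2, a somatostatin receptor, differed by −30.8 points and Dlk1, a Notch-related transmembrane protein, by −24.8 points. Cartpt, the precursor of the CART peptide, lay at 85.2 to 88.7 on amygdala arrays and 43.3 to 89.2 on PFC arrays, and was called only without PFC array LR 4 (limma, adjusted p = 0.0888 with it and 0.0175 without it). Npy was at 98.733 to 99.144 on amygdala arrays and 98.139 to 98.727 on PFC arrays. The regions thus did not overlap, by a very small margin, but Npy was not called (limma, adjusted p = 0.644).

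**Figure D3:**
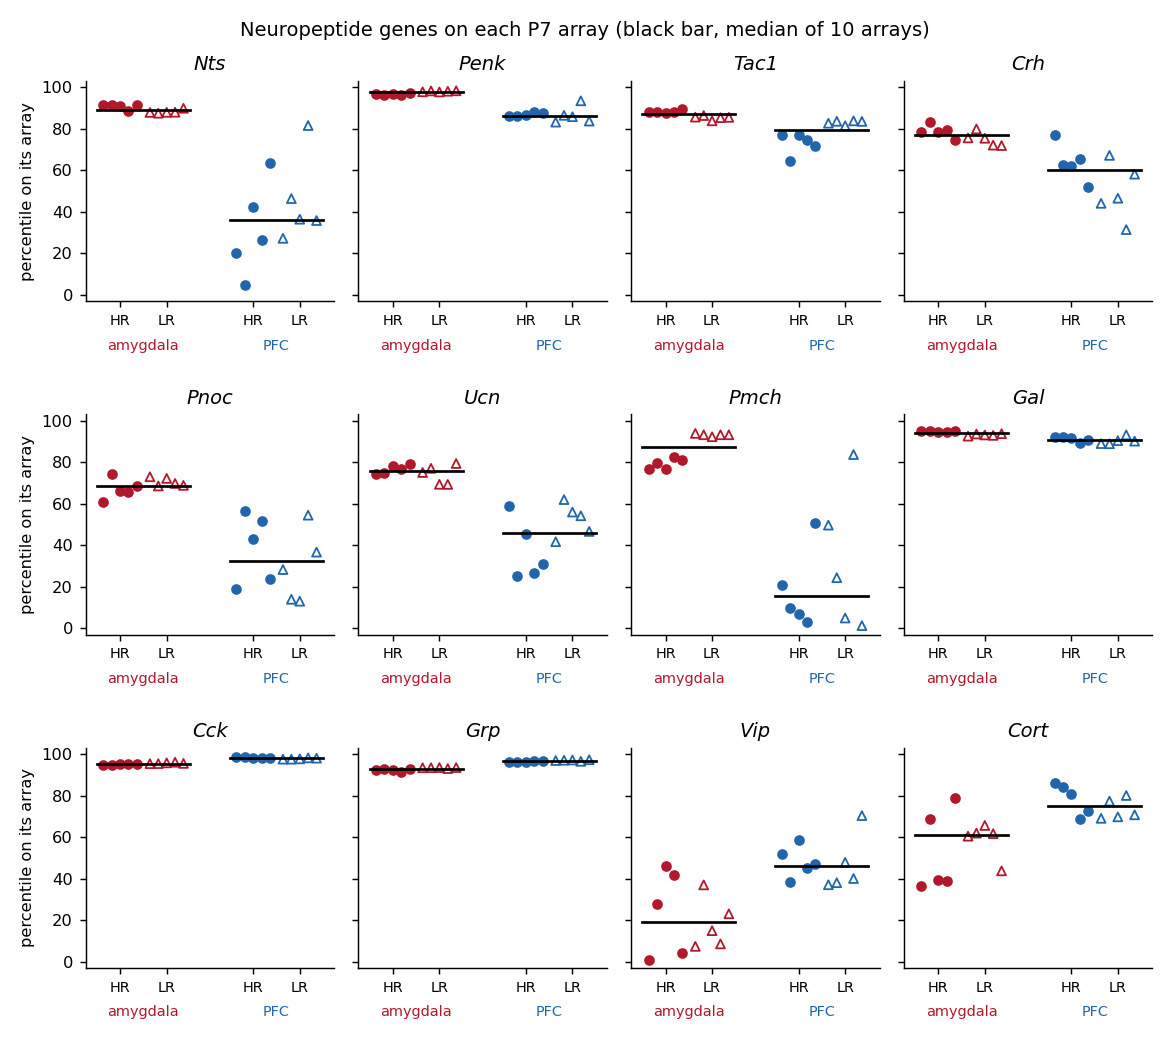
Percentile of 12 neuropeptide genes on each P7 array, with amygdala arrays in red at the left and PFC arrays in blue at the right, HR as filled circles and LR as open triangles, and the median of 10 arrays as a bar. Nts, Penk, Tac1, Pnoc and Ucn do not overlap between the regions and are higher in the amygdala, Cck and Grp do not overlap and are lower, and PFC array LR 4 is the highest PFC array for Nts, Penk and Pmch.

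Promoters of neuropeptide genes are a classic place for cAMP response elements, whose core half-site reads TGACG or, on the other strand, CGTCA. The 250 bases before the gene start were searched for it on both strands in the RefSeq promoter table (GRCr8), where 18.2% of 33469 promoters hold it. Of 15 peptide genes looked up, chosen after their values were seen, 9 had an entry and 8 of these held the half-site. The 60 bases around it are shown for 3 genes higher in the amygdala and for Vip, which was lower, because the half-site is found on both sides of the comparison. Capitals mark it. They are the Nts window at chr7:39461027-39461086 (minus strand), the Ucn window at chr6:30957952-30958011 (plus strand), where the half-site occurs on both strands and overlaps itself, the Tac1 window at chr4:36645350-36645409 (plus strand) and the Vip window at chr1:44470356-44470415 (plus strand).
Nts: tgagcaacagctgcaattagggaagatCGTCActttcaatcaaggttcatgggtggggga
Ucn: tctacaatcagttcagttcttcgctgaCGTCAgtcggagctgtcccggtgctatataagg
Tac1: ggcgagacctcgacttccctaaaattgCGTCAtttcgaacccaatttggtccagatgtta
Vip: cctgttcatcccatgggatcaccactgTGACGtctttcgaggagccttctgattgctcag
Relative to the gene start, the match begins at −171 in Nts, −107 in Ucn, −206 in Tac1 and −97 in Vip, as a description of these windows and not of bound sites.

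Genes of striatal-type projection neurons, the class to which central amygdala neurons belong, had 4 of 18 measured members higher in the amygdala and 0 lower, with a median difference of 7.81 points. They were Penk and Tac1, described above, with Arpp21 and Rxrg, which is 22.2% of the list called, against 8.14% among all named genes. Arpp21, a phosphoprotein regulated by cAMP in striatal neurons, lay at 90.3 to 92.6 on amygdala arrays (median 92.3), against 84.0 to 91.3 on PFC arrays (median 87.0), with overlap at 1 end (5.00 ± 0.930 points, limma adjusted p = 0.00378). Rxrg, a retinoid X receptor, was higher by 31.2 ± 7.70 points (limma, adjusted p = 0.0191). Defining members of the list were not called: Drd2 lay at medians of 40.01 on amygdala arrays and 24.5 on PFC arrays, Adora2a at 56.6 on amygdala arrays and 32.3 on PFC arrays, and Ppp1r1b, which encodes DARPP-32, at 75.6 on amygdala arrays and 75.4 on PFC arrays.

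Of 13 measured patterning genes of the medial amygdala and limbic forebrain, 2 were higher in the amygdala, the paired nuclear receptors Nr2f2 and Nr2f1, and 0 lower. That is 15.4% called, against 8.14% among all named genes. Nr2f1, also called COUP-TFI, lay at 71.3 to 89.0 on amygdala arrays (median 83.8), against 29.9 to 86.5 on PFC arrays (median 56). The ranges overlapped, and the difference was 24.7 ± 4.44 points on average (limma, adjusted p = 0.00297), with 10.7 points in HR and 38.7 points in LR. Without PFC arrays HR 1 and HR 2, 4 members were higher. The homeobox genes Lhx5, Lhx6, Otp, Tshz1 and Pax6 were not called, with differences between −11.4 points (Lhx6) and 3.47 points (Otp).

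Genes of pallial glutamatergic neurons did not move one way. Of 14 measured members, 2 were higher in the amygdala, 1 lower and 11 not called, with a median difference of 0.974 points. The share called was 21.4%, against 8.14% among all named genes. Neurod6, a transcription factor of cortical pyramidal neurons, lay at 0.995 to 45.7 on amygdala arrays (median 9.40), against 36.4 to 84.8 on PFC arrays (median 61.0). Only amygdala array HR 2 reached the PFC range, and the difference was −48.1 ± 6.2 points (limma, adjusted p = 0.000322). Camk2a, a kinase of excitatory synapses, was higher in the amygdala by 17 points (limma, adjusted p = 0.0313, and 0.0521 without PFC arrays HR 1 and HR 2).

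Of 18 measured neocortical identity genes, 0 were higher in the amygdala and 1, Crym, was lower (5.56%), near the 4.21% lower among all named genes. Crym encodes mu-crystallin, a thyroid hormone-binding protein of cortical neurons, and lay at 92.2 to 94.3 on amygdala arrays (median 93.1), against 97.3 to 98.7 on PFC arrays (median 98.0). The regions were cleanly apart (−4.84 ± 0.618 points, limma adjusted p = 0.00031), which is −2.65 on the median-centred log2 scale. The layer markers Cux2, Fezf2, Bcl11b, Sox5, Etv1, Lamp5, Rprm and Ccn2 were not called. Fezf2 lay at 76.2 to 87.7 on amygdala arrays and 80.3 to 91.4 on PFC arrays, largely the same range. Several defining markers had dim probes in both regions, among them Slc17a7, the vesicular glutamate transporter of cortical neurons, with medians of 10.7 on amygdala arrays and 16.1 on PFC arrays.

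Of 13 measured genes of basolateral and cortical amygdala neurons, 0 were higher in the amygdala and 2, Neurod6 and Grp, were lower. The share lower was 15.4%, against 4.21% among all named genes. Grp encodes gastrin-releasing peptide, a marker of excitatory neurons of the lateral nucleus, and lay at 91.4 to 93.6 on amygdala arrays (median 93.0), against 96.3 to 97.3 on PFC arrays (median 96.7). It thus went against the name of its list without any overlap (−3.87 ± 0.616 points, limma adjusted p = 0.00121). Lmo3, Cdh13, Lypd1, Otof and Tfap2d were not called, and Lmo3 lay at medians of 88.3 on amygdala arrays and 87.0 on PFC arrays (limma adjusted p = 0.0394 without PFC arrays HR 3 and HR 4). At an unadjusted p under 0.05 in limma, 1 member was higher and 2 were lower.

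GABAergic neuron genes were split, with 2 of 23 measured members higher in the amygdala, 2 lower and 19 not called. The share called was 17.4%, against 8.14% among all named genes. Dlx2, a homeobox gene of GABAergic progenitors, lay at 58.5 to 73.9 on amygdala arrays, against 11.5 to 71.1 on PFC arrays (26.2 ± 7.33 points, limma adjusted p = 0.0354, and 0.0885 without PFC arrays HR 3 and HR 4). Sst differed by the small amount given above, at 95.8 to 97.3 on amygdala arrays and 91.3 to 95.4 on PFC arrays, and without overlap. Cort, which encodes the somatostatin relative cortistatin of cortical interneurons, lay at 36.5 to 78.9 on amygdala arrays, against 68.9 to 86.1 on PFC arrays (−20.3 ± 5.12 points, limma adjusted p = 0.021, and 0.0522 without PFC arrays HR 1 and HR 2). The enzymes of GABA synthesis had dim probes and were not called: Gad1 lay at medians of 6.59 on amygdala arrays and 27.3 on PFC arrays, and Gad2 at 8.17 on amygdala arrays and 23.9 on PFC arrays.

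Some markers of tissue next to the dissected regions also differed between the regions. Of 23 measured genes of the thalamus and hypothalamus, 4 were higher in the amygdala (17.4%, against 3.93% among all named genes) and 0 lower. They were Pmch, Avp, Rax and Prkcd, the last also a member of the central amygdala list, and 19 were not called. The median difference was 6.31 points. The mean percentile of the list lay between 44.7 and 52.4 on amygdala arrays and between 34.6 and 51.6 on PFC arrays. Pmch encodes melanin-concentrating hormone, made by neurons of the lateral hypothalamus and zona incerta. It lay at 76.5 to 93.9 on amygdala arrays (median 87.4), against 1.3 to 83.7 on PFC arrays (median 15.4), the largest amygdala-minus-PFC difference at P7 of any gene described here at 60.7 ± 8.58 points (limma, adjusted p = 0.000596), or 67.1 points without PFC array LR 4. The 5 HR amygdala arrays lay between 76.5 and 82.5 and the 5 LR amygdala arrays between 92.3 and 93.9. PFC array LR 4 was at 83.7, inside the amygdala range, and the next PFC arrays were at 50.8 and 49.7.

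Avp, the vasopressin precursor, was higher by 8.57 ± 1.81 points and Rax, a homeobox gene of the hypothalamus, by 21 ± 5.13 points (limma adjusted p = 0.00817 and 0.0183). Avp lay at 79.4 to 85.3 on amygdala arrays, against 64.3 to 79.7 on PFC arrays, with an overlap of a fraction of a point. Other defining hypothalamic genes were not called. Hcrt, the orexin precursor, lay at medians of 46.2 on amygdala arrays and 48.3 on PFC arrays, Oxt at 76.7 on amygdala arrays and 70.1 on PFC arrays, and Trh at 47.1 on amygdala arrays and 14.2 on PFC arrays. Trh was called without PFC arrays HR 1 and HR 2 (limma, adjusted p = 0.0119, against 0.0719 with all arrays). The part of neighbouring tissue in the peptide differences was not tested.

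Choroid plexus and ependymal genes were higher in the amygdala for 4 of 8 measured members and lower for 0, with a median difference of 13.8 points. The share higher was 50%, against 3.93% among all named genes. The mean percentile of the list lay between 59.2 and 73.4 on amygdala arrays and between 37.6 and 59.2 on PFC arrays, with PFC array LR 4 at the top of its region. Ttr encodes transthyretin, the main secreted protein of the choroid plexus, and lay at or above 99.9 on amygdala arrays, against 76.0 to 99.4 on PFC arrays (median 91.5). No array overlapped (11.8 ± 2.17 points, limma adjusted p = 0.00342), and on the median-centred log2 scale the difference was 5.62. Without PFC array LR 4 it was 12.6 points. Folr1, a folate receptor of the same epithelium, lay at 82.5 to 94.9 on amygdala arrays (median 91.3), against 0.919 to 83.9 on PFC arrays (median 33.3). PFC array LR 4 alone reached the amygdala range, and the difference was 53.4 ± 7.61 points with it and 58 points without it (limma, adjusted p = 0.000616 and 0.000111).

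Kcnj13, a potassium channel of choroid plexus, was higher by 38.4 ± 5.47 points and Rsph1, a radial spoke protein of motile cilia, by 28 ± 7.95 points (limma, adjusted p = 0.000616 and 0.0383). Kcnj13 lay at 11.6 to 74.1 on amygdala arrays and 1.14 to 27.3 on PFC arrays, so amygdala array HR 4 fell within the PFC range. Without PFC arrays HR 1 and HR 2, 3 members were higher, as Rsph1 was then not called (limma, adjusted p = 0.0838). How many choroid plexus cells each dissection held was not measured, and their part in the other differences was not tested.

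Genes of the meninges and fibroblasts ran the other way. Of 14 measured members, 5 were lower in the amygdala (35.7%, against 4.21% among all named genes) and 0 higher, with a median difference of −10.6 points. The mean percentile of the list lay between 34.6 and 49.8 on amygdala arrays and between 43.6 and 60.3 on PFC arrays. Ptgds, the prostaglandin D synthase of leptomeninges and choroid plexus, lay at 82.1 to 93.3 on amygdala arrays (median 89.4), against 95.5 to 97.5 on PFC arrays (median 97.1). The regions did not overlap (−8.49 ± 0.729 points, limma adjusted p = 5.3e-06), which is −3.19 on the median-centred log2 scale. The 5 HR amygdala arrays were between 82.1 and 86.2 and the 5 LR amygdala arrays between 92.5 and 93.3, while the PFC arrays lay between 95.5 and 97.5 in both lines (line by region, limma adjusted p = 0.0575).

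The transporters Slc6a13 and Slc22a6, both of meningeal cells, and the collagens Col1a1 and Col1a2 were lower too. Slc6a13, which takes up GABA, lay at 2.93 to 38.9 on amygdala arrays, against 19.5 to 81.0 on PFC arrays, with overlap (−36.7 ± 6.77 points, limma adjusted p = 0.00356). Col1a1 differed by −25.4 points, Slc22a6 by −28.8 points and Col1a2 by −4.26 points (limma adjusted p = 0.00748, 0.0124 and 0.027). Col3a1, Dcn, Igf2 and Ogn were not called. Without PFC arrays HR 1 and HR 2, 6 members were lower.

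**Figure D4:**
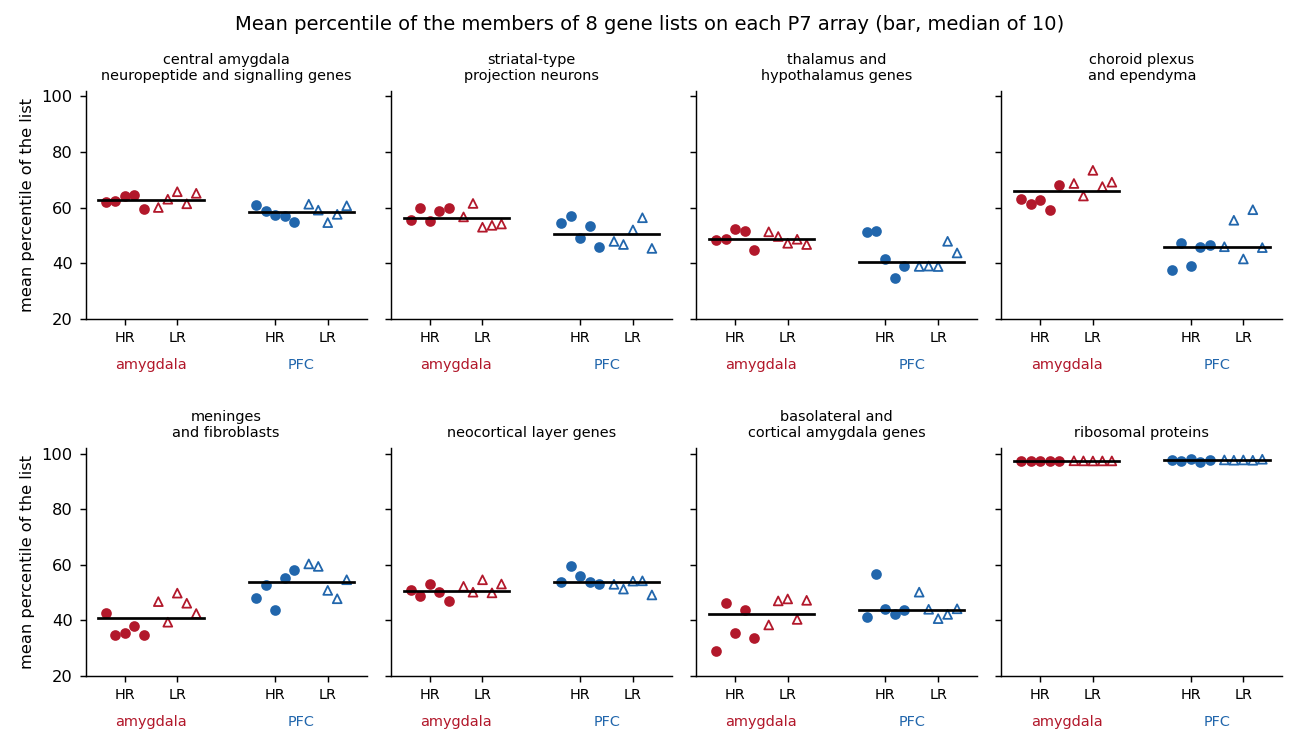
Mean percentile of the measured members of 8 gene lists on each P7 array, with amygdala arrays (red) left of PFC arrays (blue), HR as filled circles, LR as open triangles and a bar at the median of 10 arrays; the vertical axis starts at 20. Choroid plexus genes lie between 59.2 and 73.4 on amygdala arrays and between 37.6 and 59.2 on PFC arrays, meningeal genes lie lower on amygdala arrays with overlap, and ribosomal protein genes lie at about the same height in both.

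Among receptors for steroids and stress peptides and their ligands, 3 of 14 measured members were higher in the amygdala and 0 lower. The share higher was 21.4%, against 3.93% among all named genes. Besides Oxtr, the members higher were Adcyap1, the precursor of the peptide PACAP, and its receptor Adcyap1r1. Adcyap1 lay at 95.3 to 97.2 on amygdala arrays (median 95.7), against 88.7 to 94.1 on PFC arrays (median 92.8), without overlap (3.67 ± 0.799 points, limma adjusted p = 0.00971). Adcyap1r1 lay at 27.2 to 65.4 on amygdala arrays and 2.08 to 63.6 on PFC arrays (26.3 ± 6.49 points, limma adjusted p = 0.019). The ranges overlapped, with PFC array HR 4 at 63.6 and the next PFC arrays at 34.1 and 32.9. The difference was 33.6 points without PFC arrays HR 3 and HR 4, and 22.7 points without HR 1 and HR 2 (limma, adjusted p = 0.000843 and 0.049). Crhr1, the main receptor of Crh, lay at medians of 10.4 on amygdala arrays and 33.8 on PFC arrays and was not called (−16.0 points, limma adjusted p = 0.333).

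Opioid and endocannabinoid genes had 2 of 8 measured members higher, the precursors Penk and Pnoc already described, and 0 lower. The share higher was 25%, against 3.93% among all named genes. No member was called among 16 measured monoamine and acetylcholine receptors, 16 glutamate receptor subunits and 7 GABA receptor subunits in limma. At an unadjusted p under 0.05 in limma, the counts were 5, 1 and 1, and with normal scores in place of percentiles they were 0 in each list. The counts called were 1, 2 and 1, all higher, without PFC arrays HR 1 and HR 2. In the first list, 1 member was called lower without LR 4.

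Retinoic acid signalling genes were split. Of 15 measured members, Crabp1 and Rxrg were higher in the amygdala, and Cyp26a1 and Rarg were lower. The share called was 26.7%, against 8.14% among all named genes. Crabp1, a carrier of retinoic acid inside cells, lay at 84.2 to 89.1 on amygdala arrays (median 87.2), against 50.2 to 76.2 on PFC arrays (median 67.8), with a clean gap (21 ± 2.75 points, limma adjusted p = 0.000376). Cyp26a1, an enzyme that degrades retinoic acid, lay at 0.243 to 35.4 on amygdala arrays and 11.4 to 62.6 on PFC arrays, with overlap (−28.4 ± 7.10 points, limma adjusted p = 0.0205). Rarg, a retinoic acid receptor, differed by −21.2 points, with an adjusted p of 0.043 in limma, of 0.0748 without PFC arrays HR 1 and HR 2, and of 0.0685 without LR 4.

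Of 26 measured axon guidance genes, 0 were higher and 2 lower in the amygdala, with a median difference of −7.69 points. The share called, 7.69%, was near the 8.14% among all named genes. The 2 called were Epha7, an ephrin receptor, and Robo2, a receptor for Slit proteins. Epha7 lay at 13.11 to 65.5 on amygdala arrays (median 27.4), against 42.5 to 79.0 on PFC arrays (median 66.6), and Robo2 at 2.26 to 47.8 on amygdala arrays (median 9.14), against 23.2 to 76.7 on PFC arrays (median 44.8). Both overlapped, and differed by −34.1 ± 6.94 and −34.2 ± 7.51 points (limma, adjusted p = 0.00648 and 0.0102). At an unadjusted p under 0.05 in limma, 2 of the 26 were higher and 5 lower. Of 18 cadherins, Cdh5, which belongs to endothelial junctions, was the 1 called (5.56%). Of 22 voltage-gated potassium channels, Kcng2 was higher by 23.9 points and Kcnv1 lower by 29 points (9.09% called). The second Kcng2 row was higher as well (25.1 points, limma adjusted p = 0.0272).

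Of 64 measured glial and vascular genes, 9 were higher in the amygdala and 2 lower, which is 17.2% called, against 8.14% among all named genes. Of 17 measured astrocyte genes, 3 were higher and 0 lower: Aldoc, an aldolase of astrocytes, Slc7a10, a serine and glycine transporter, and Apoe, the brain's main lipid carrier protein. Aldoc lay at 87.0 to 91.6 on amygdala arrays, against 73.4 to 89.9 on PFC arrays, with overlap (8.15 ± 1.83 points, limma adjusted p = 0.0115). Of 14 measured microglial genes, Cd68, Cd14 and C1qb were higher and 0 lower. Cd68, a lysosomal protein of phagocytes, lay at 56.9 to 75.3 on amygdala arrays (median 63.8), against 19.9 to 59.2 on PFC arrays (median 35.9), and only PFC array LR 5 reached the amygdala range (26.3 ± 4.04 points, limma adjusted p = 0.000948). Cd14 and C1qb were not called without PFC arrays HR 1 and HR 2 (limma, adjusted p = 0.072 and 0.0634), nor was Cd14 without LR 4 (0.0536).

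Of 18 measured myelin genes, Bcas1 and Cldn11 were lower in the amygdala and 0 higher, and of 7 measured genes of oligodendrocyte precursors, Cspg5 was higher by 2.69 points. Cldn11, the claudin of myelin, differed by 0.864 points in HR and −46.7 points in LR (line by region, limma adjusted p = 0.254), so its average of −22.9 points rests on LR. The Cldn11 call was lost without PFC array LR 4 and without HR 1 and HR 2 (limma, adjusted p = 0.0513 and 0.0752). The second row of Cspg5 was not called (limma, adjusted p = 0.0587). Of 12 measured endothelial and mural genes, Cdh5 and Kcnj8 were higher and 0 lower. Cdh5 lay at 10.3 to 66.6 on amygdala arrays, against 3.0 to 44.2 on PFC arrays (23.6 ± 6.08 points, limma adjusted p = 0.0238, and 0.0503 without PFC arrays HR 3 and HR 4). Kcnj8, a potassium channel of pericytes, was higher by 6.64 points (limma, adjusted p = 0.0431, 0.0702 without PFC array LR 4 and 0.074 without HR 3 and HR 4). Of 11 measured blood genes, Ahsp, the chaperone of alpha-globin in red cells, was lower by 7.01 ± 1.32 points in the amygdala (limma, adjusted p = 0.00403). The share of that list called, 9.09%, was near the 8.14% among all named genes.

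Lists of general cell function gave few calls. Of 61 measured ribosomal protein genes, 0 were called in limma (2 at an unadjusted p under 0.05, and 7 called with normal scores), with a median difference of −0.229 points. The mean percentile of the list lay between 97.3 and 97.4 on amygdala arrays and between 97.1 and 98.0 on PFC arrays. Points are compressed at that height, so the lack of calls does not show equal expression. In this list, 1 gene was lower without PFC arrays HR 1 and HR 2, and 2 were lower without HR 3 and HR 4. Of 61 genes of oxidative phosphorylation, Ndufs4 of complex I was lower by 3.47 points and the other 60 were not called (1.64% called). The list had 4 genes lower and 0 higher without PFC arrays HR 1 and HR 2. It had 3 higher and 2 lower without HR 3 and HR 4. No member of 16 synaptic vesicle genes was called in limma, with 3 at an unadjusted p under 0.05 and 0 called with normal scores. A single member, 1 of 16, was called higher without PFC arrays HR 1 and HR 2. Of 13 cell cycle genes, Kif20a, a kinesin of cytokinesis, was higher without overlap, at 77.8 to 84.2 on amygdala arrays against 62.9 to 75.0 on PFC arrays (12.6 ± 1.42 points, limma adjusted p = 8.95e-05). The share of that list called, 7.69%, was near the 8.14% among all named genes. Of 16 genes of immature neurons, Tubb3 was higher by 3.99 points and Dpysl3 lower by 27.6 points, and of 14 activity-regulated genes Egr1 was lower by 21.8 points. The shares called were 12.5% for immature neurons and 7.14% for activity-regulated genes, against the same 8.14%. The Tubb3 and Egr1 calls were lost without PFC arrays HR 1 and HR 2 (limma, adjusted p = 0.0828 and 0.115) and without LR 4 (0.0693 and 0.0687), and the Dpysl3 call without HR 3 and HR 4 (0.0626). Nnat, neuronatin, was the 1 called of 5 measured genes of olfactory cortex and claustrum (20%), higher by 25.3 points (limma, adjusted p = 0.0208).

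Few rows were called for line by region, and their number depended on the setting. With 5 arrays a group, 280 rows (1.77%) were called between amygdala and PFC in HR and 599 (3.78%) in LR, and 90 were called in both, 89 of them with the same sign, which is 32.1% of the HR calls and 15% of the LR calls. The number called in HR was 793 without PFC arrays HR 1 and HR 2. A shift of a row between the tables cancels in the direct test of line by region only if it is constant in percentile points. That test called 2 rows (0.0126%), against 1411 at an unadjusted p under 0.05 in limma. They were Isg20l2 and a provisional locus. Without PFC arrays HR 1 and HR 2 this test called 78 rows, and with normal scores 0.

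Isg20l2 encodes an exonuclease of ribosomal RNA processing. In HR rats it lay at 19.2, 43.3, 60.8, 53.4 and 51.1 on amygdala arrays, against 17.1, 0.515, 11.7, 26.5 and 16.9 on PFC arrays. In LR rats it lay at 2.87, 2.34, 8.02, 18.8 and 4.53 on amygdala arrays, against 48.6, 41.9, 49.8, 45.2 and 39 on PFC arrays. The order of the regions was thus opposite in the lines, with overlap in HR at a single amygdala array and none in LR. Most of these values lay below the middle of the scale, where the array may have little signal. The difference was 31 points in HR and −37.6 points in LR, and the interaction was 68.6 ± 8.88 points (limma, adjusted p = 0.00904). It held the same sign and stayed called when any 1 array was left out, and missed the threshold with normal scores (adjusted p = 0.095).

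The region difference changed with age at part of the rows. In the fit over all 60 arrays, 2445 rows were called at P21 (15.4%). Of the 1288 rows called at P7, 322 were called at P21 with the same sign and 74 with the other, and together they are 30.7% of the P7 calls and 16.2% of the P21 calls. In the change of the region difference from P7 to P21, a shift between the tables cancels only if it is constant in percentile points. The array numbers also follow age within each table, so array set and age cannot be told apart in this change. The change was called for 1017 rows (6.43%), 450 upward (2.84%) and 567 downward (3.58%). Of the rows called at P7, 280 (21.7%) were among them, and in 268 of these the difference moved towards or past 0 by P21. The same P7 arrays enter both the P7 call and this change.

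Of the 12 named genes higher in the amygdala without overlap, 6 were also called higher at P21 and 1 was called lower, and of the 12 lower, 8 were also called lower at P21. Nts kept its difference, at 51 points at P7, 60.2 ± 7.81 at P14 and 52.6 ± 7.81 at P21 (region by age, limma adjusted p = 0.962). Nr2f2 and Penk did likewise by value, at 40.3 and 8.63 points at P21. Ucn lost it, with 30.6 points at P7, −1.69 at P14 and 0.615 at P21 (region by age, limma adjusted p = 0.0133). C9h2orf66 changed sign, at 29.3, −17.5 and −22.3 points (region by age, limma adjusted p = 4.41e-05). Olr1090 shrank, at −56.4, −44.9 and −22.9 points (limma, adjusted p = 0.000333), and Dcaf8 was at −41.2, −0.0291 and 6.92 points (limma, adjusted p = 0.00016).

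Peptide genes of the central amygdala list also differed by age. Crh was higher in the amygdala by 20.2 points at P7 and differed by −13.2 points at P14 and −9.84 points at P21 (region by age −30.1 ± 5.02 points, limma adjusted p = 0.000114). Sst was at 2.59, −0.855 and −2.64 points (limma, adjusted p = 9.59e-05). Penk, at 10.7, 9.47 and 8.63 points, and Pmch, at 60.7, 62.1 and 43.1 points, were not called in this test (limma, adjusted p = 0.489 and 0.285). Among layer and guidance genes, the Crym difference was −4.84, −2.29 and −1.73 points (limma, adjusted p = 0.0026), and that of Epha7 −34.1, 3.03 and 3.05 points (limma, adjusted p = 0.0198), whereas Robo2 stayed at −34.2, −23.6 and −33.2 points (limma, adjusted p = 0.974).

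The genes taken as leading the region-by-age change crossed over. Cacng6, an auxiliary subunit of the calcium channel family, was at −32.5 points at P7, 17.7 at P14 and 33.8 at P21, and Rbm14, an RNA-binding coactivator, at 37.9, −12.6 and −39.6 points. The changes from P7 to P21 were 66.4 ± 10.09 and −77.5 ± 9.99 points (limma, adjusted p = 4.04e-05 and 1.39e-06). Fancd2os, Il20 and Nlrp5 moved upward from P7 to P21 by 62.0, 60.6 and 59.5 points, and Or4g17, F13b and Agfg2 moved downward by values of −73.4, −61.6 and −54.9 points. Agfg2 had no call at P7 (6.57 points, limma adjusted p = 0.647), and second rows of F13b and Agfg2 were not called for region by age (limma adjusted p = 0.0673 and 0.3).

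**Figure D5:**
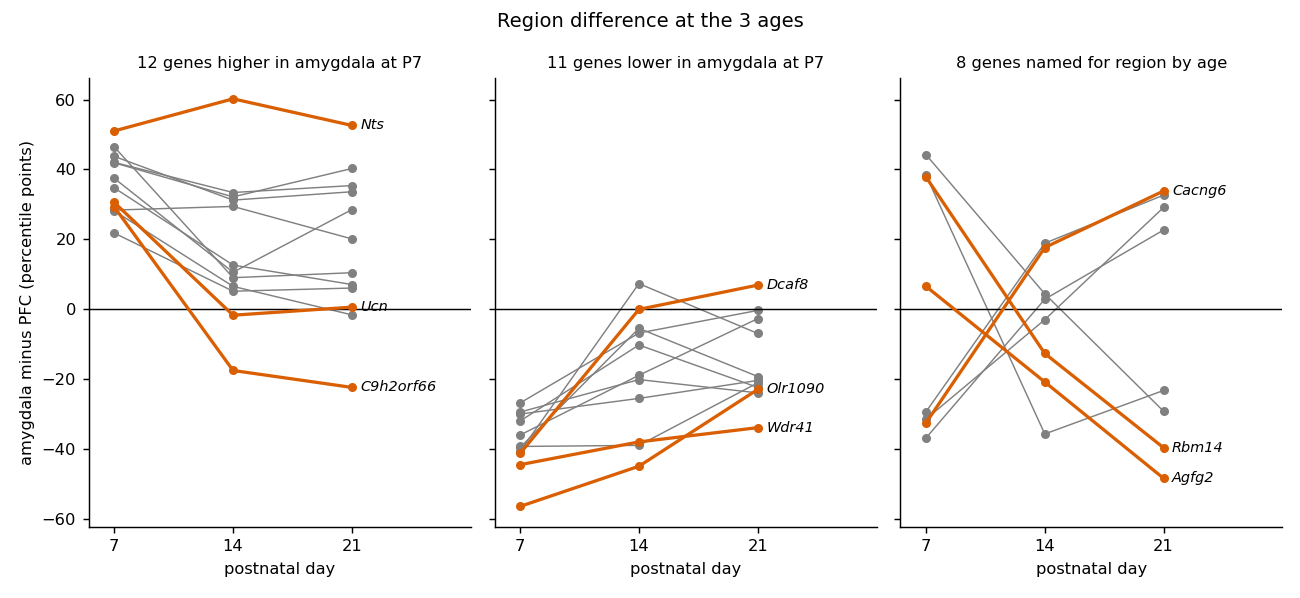
Amygdala minus PFC in percentile points at P7, P14 and P21 (20 arrays at each age, means over both lines) for the 12 genes higher and 11 genes lower in the amygdala without overlap at P7, and for the 8 genes named for region by age. Nts stays between 51 and 60.2 points while Ucn and C9h2orf66 fall to 0.615 and −22.3 points at P21, Olr1090 stands at −22.9 points at P21 among the lower genes, and the genes in the right panel end on the other side of 0 or, for Agfg2, start near it.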

How the data were processed

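RNA of amygdala and PFC of male HR and LR rats was measured on single-colour NimbleGen arrays (Cy3), and the 20 P7 arrays were compared. The authors deposited a table per region with normalized intensity on a linear scale. RMA, a background correction, normalization and probe summary, is the tool named in the submitters' processing notes, without a version. The series value table held the same values, with scale, centring and direction unstated: all 60 of its columns equalled a column of the regional tables exactly. It gave each column its sample and replicate number. Left out were 1046 blank lines of the amygdala table, 1 PFC control row, and rows with a value in 1 table only (1691 amygdala and 2736 PFC). No per-sample column was left unused. Of the 15828 shared rows, 12098 took a symbol from a reference gene table (GRCr8, used for names), 2989 kept the file's own and 741 had none.

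Each array was reduced to percentile ranks over the shared rows. limma (version 3.58.1, R 4.3.3) fitted the means of the 4 P7 groups of 5 arrays, or of all 12 groups of the 60 arrays for region by age, and p-values were adjusted by Benjamini-Hochberg over all shared rows. Errors are standard errors of the fit. Tables were made in Python 3.11.15 with pandas 2.3.3. Only the test of amygdala minus PFC at P7, averaged over lines, was run on simulated data, and the other tests were not. For arrays, their number limits the precision.

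Named genes had 1 row each, the row with the highest mean percentile, and provisional loci were not named. The rule took 12 genes in each direction among called genes with no overlap between the regions, ranked by size, up to 4 called members of each of 32 gene lists with up to 2 in the opposite direction, any member of the region marker lists, up to 6 genes for line by region and 4 in each direction for region by age. Some genes that this rule takes are not reported here. The members and lists were chosen with earlier results of these data known. Alternatives were normal scores, quantile-normalized or median-centred log2 of the deposited intensity, a limit to rows above the middle, all 60 arrays in 1 fit, array weights, replicate blocks and single arrays left out. A variance trend and the removal of pairs of PFC arrays were added after the data were seen.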

Additional observations from a re-analysis of the deposited data

Results flagged for a closer look

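Among the 356 groups of 5 arrays tested (89 named genes in 4 groups), 33 (9.27%) held an array set apart from the other 4, where chance gives about 1 in 20 groups. Values are percentiles. In HR amygdala, the array set apart lay at 88.6 for Nts, 58.5 for Gstm6, 61.3 for C1qb and 54.8 for Slc22a6 (all replicate 4), at 57.3 for Cflar and 99.9 for Ttr (replicate 3), at 14.4 for Nars1 and 34.6 for Cyp26a1 (replicate 5), and at 40.8 for Rarg (replicate 2).

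In LR amygdala it lay at 20.8 for Tbc1d8, 93.1 for Grp, 35.4 for Cyp26a1, 47.8 for Egr1 and 10.04 for Slc22a6 (all replicate 4), at 89.9 for Nts, 61.3 for Dtx4, 43.8 for Cort and 22.3 for Fancd2os (replicate 5), at 62.8 for Rln3 (replicate 1), at 33.3 for Nars1 (replicate 2) and at 60.6 for Kcnv1 (replicate 3).

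In HR PFC it lay at 62.6 for Ggnbp2 (replicate 1), 53 for Tbc1d8 (replicate 2), 95.5 for Ptgds (replicate 3), and 91.3 for Arpp21 and 85.8 for Ndufs4 (replicate 4). In LR PFC it lay at 44.2 for Cdh5 and 41 for Il20 (replicate 1), 83.3 for Ggnbp2 and 33.1 for Slc22a6 (replicate 3), 96.8 for Apoe and 99.4 for Ttr (replicate 4), and 12 for Rarg (replicate 5). Of the 33 cases, 21 were in the amygdala and 12 in the PFC, and LR amygdala replicate 4 held 5, the most of any array.

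Isg20l2 was the named gene whose region difference itself differed between lines, by 68.6 points (31 in HR and −37.6 in LR). The region difference changed between P7 and P21 by 66.4 points for Cacng6, 62 for Fancd2os, 60.6 for Il20, 59.5 for Nlrp5, −77.5 for Rbm14, −73.4 for Or4g17, −61.6 for F13b and −54.9 for Agfg2, each called in the test of that change.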

How the results depend on the processing

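None of the 89 called results for named genes changed sign under any alternative run, but genes named as not called can: Otp, at 3.47 points, was at −1.17 points without PFC arrays HR 3 and HR 4. With 1 array left out, 1741 of 1940 values for the 89 named results stayed called and 199 did not, and among the other settings normal scores lost 3 of 89 calls, all 60 arrays 9 of 81 and the removal of PFC arrays HR 1 and HR 2 9 of 89. The cause was not tested for any change given here. Rows called between amygdala and PFC, 1288 with percentiles, numbered 2120 on quantile-normalized log2 values, 2860 on median-centred log2 values and 1952 with a variance trend, and 42 with no overlap and at least 20 points. The share of called rows higher in the amygdala was 52.4% with percentiles and 43.5% on median-centred log2 values, and left-out arrays gave 995 to 1554 calls. In HR, 280 became 749 and 912 on those log2 scales, 481 among rows above the middle, 622 with a variance trend and 793 without PFC arrays HR 1 and HR 2, with 156 to 361 for single arrays left out (156 without amygdala HR 4). In LR, 599 became 1324 and 1896 on those log2 scales, 939 among rows above the middle, 1400 with array weights, 1174 with a variance trend and 1107 without PFC arrays HR 1 and HR 2, with 256 (without PFC LR 5) to 819 for single arrays left out. Line by region, 2 rows, gave 0 with normal scores, 27 and 14 on those log2 scales, 1 among rows above the middle, 7 with all 60 arrays, 4 with array weights, 34 with a variance trend, 78 without PFC arrays HR 1 and HR 2, 7 without HR 3 and HR 4, and 1 to 10 with single arrays left out. Region by age, 1017 rows, gave 1694 on median-centred log2 values and 852 to 1224 with single arrays left out. With group means taken off, same-numbered arrays of the 2 regions correlated at −0.035 to 0.0213. Of these, 1 of 10 correlated best with its own number. Such low correlations cannot show whether or not the arrays share an animal. A replicate block by number gave 1292 calls, and by sample code 1305. The tables hold no background signal, so no limit of detection could be set.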
